A study of Mus musculus with 6 samples.

Results

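The extracellular signal-regulated kinase (ERK) pathway carries signals from cytokine and growth factor receptors through Ras, Raf and MEK to the ERK kinases. Cells limit it by making its own inhibitors. SPRED and Sprouty proteins act near the membrane, at the level of Ras and Raf. Dual-specificity phosphatases of the DUSP family, also called MAP kinase phosphatases, remove phosphate from ERK, p38 or JNK. Several of these genes, and the ETS transcription factor gene Etv5, are widely used as transcriptional readouts of ERK activity. The GM-CSF receptor is known to activate both STAT5 and the Ras to ERK route.

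The 10 genes described here were chosen by name as ERK feedback genes: Spred1, Spred2, Spry1, Spry2, Etv5, Dusp1, Dusp2, Dusp4, Dusp5 and Dusp6. They are 10 of 23656 genes in the tables. The choice was made with earlier results of these data known. Their counts beside those of all genes are therefore a description. RNA came from eosinophils of the small intestinal lamina propria of wild-type BALB/c mice. Eosinophils are granulocytes that live in the healthy gut wall. The study made 3 cultures with GM-CSF at 10 ng/ml and 3 untreated cultures, all kept for 4 hours, and asked which genes the cytokine changes. Animal age, the method of isolation and any pooling of animals are not stated in the labels. The labels do not say that the cultures came from separate mice, so the p-values measure only the spread between cultures.

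The values are FPKM, fragment numbers scaled to transcript length and to the size of the library, as the authors deposited them. Mapped sequence came to 0.820 gigabases in the shallowest library and 1.32 in the deepest, GM-CSF replicate 2. The eosinophil marker genes Ccr3 (289 FPKM untreated, 251 with GM-CSF) and Siglec5, the symbol used here for Siglecf (170.1 and 170.4 FPKM), were abundant in both groups and did not pass the test. The eosinophil genes Il5ra, Epx, Alox15 and Cebpe fell and Gata1 rose, among 8 of 12 markers tested. Epx (6.62 FPKM untreated, 4.27 with GM-CSF) and Prg2 (8.85 and 8.93 FPKM) were low, and Prg2 did not pass. The markers not tested were Prg3, Ear1, Ear2 and Ear6. Their means were 0.238, 0.613, 0.372 and 0.718 FPKM untreated and 0.323, 0.271, 0.0760 and 0.490 FPKM with GM-CSF. Across the 10140 genes tested with limma, 21.8% passed at an adjusted p under 0.05, 7.60% rising and 14.2% falling. This split moved with the scaling, from 771 up and 1438 down as deposited to 1075 and 968 with median-of-ratios factors, 789 and 913 after rescaling to one FPKM sum, and 941 and 1111 after quantile normalization. The median log2 fold change of all tested genes was -0.05.

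GM-CSF raised Spred1 and Etv5, and Spred2 and Spry2 by less. None of the phosphatase genes passed upward, except Dusp1 when the replicate number was added as a term (limma adjusted p = 0.0380). Of the 10 genes, 8 had a mean of at least 1 FPKM and were tested. Of these, 4 rose (Spred1, Etv5, Spred2 and Spry2), where 7.60% of all tested genes rose, 2 fell (Dusp6 and Dusp2), where 14.2% fell, and 2 did not pass (Dusp1 and Dusp5). Each of the 8 was also above 1 FPKM in each group on its own. Groups did not overlap for 7 of the 8, against 39.2% of all tested genes. The median log2 fold change of the 8 was 0.28. Of the 8, 3 passed without GM-CSF replicate 1 or 2 and 4 without any other library, in place of 6. The 2 with a log2 fold change above 1, Spred1 and Etv5, passed whichever library was left out. The call of Spry2 ended whichever library was left out.

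The promoters of Spred1 and Etv5, which changed most, and of Dusp1, the most abundant of the 10, are shown to give the sequence at which these genes start. The sequences are from RefSeq, build GRCm38.p6, from 250 bases before to 50 after the start. Spred1 lies at chr2:117120821-117121120 on the plus strand. The upstream start of Etv5, which has 2 starts in the table, lies at chr16:22439521-22439820 on the minus strand. Dusp1 lies at chr17:26508423-26508722 on the minus strand. All are written 5′ to 3′ along the gene, with capitals marking a match to a searched motif.

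Spred1: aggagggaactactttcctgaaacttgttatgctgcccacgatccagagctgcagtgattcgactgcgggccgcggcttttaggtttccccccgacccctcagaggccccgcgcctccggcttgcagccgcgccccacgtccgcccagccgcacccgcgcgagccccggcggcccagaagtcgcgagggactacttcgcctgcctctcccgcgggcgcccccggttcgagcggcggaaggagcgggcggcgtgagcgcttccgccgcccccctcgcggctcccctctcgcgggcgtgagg

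Etv5: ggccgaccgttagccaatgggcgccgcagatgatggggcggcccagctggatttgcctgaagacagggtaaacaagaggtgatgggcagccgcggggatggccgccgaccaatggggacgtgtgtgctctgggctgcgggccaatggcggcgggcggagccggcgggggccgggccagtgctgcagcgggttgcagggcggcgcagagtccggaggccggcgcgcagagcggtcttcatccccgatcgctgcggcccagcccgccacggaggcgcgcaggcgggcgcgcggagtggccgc

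Dusp1: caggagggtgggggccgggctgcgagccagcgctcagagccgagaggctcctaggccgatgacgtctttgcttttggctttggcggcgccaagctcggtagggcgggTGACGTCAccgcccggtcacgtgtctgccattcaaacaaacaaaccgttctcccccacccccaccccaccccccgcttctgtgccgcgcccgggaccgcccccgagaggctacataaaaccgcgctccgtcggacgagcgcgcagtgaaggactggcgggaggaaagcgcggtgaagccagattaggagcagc

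The motifs searched on both strands were TTCNNNGAA (STAT), TGANTCA (AP-1), TGACGTCA (the cAMP response element, CRE) and CCGGAAG (ETS), and no motif contains another. Of the 10 genes, 9 had a promoter in the table, with 10 promoters in all. The Dusp1 promoter held TGACGTCA at position -143 from the start, a motif found in 1.79% of 32851 promoters of the same length. The other 9 promoters held none of the 4 motifs. Across all promoters the STAT motif was found in 8.30%, the AP-1 motif in 7.81% and the ETS motif in 8.86%. All 10 promoters were above the median G and C content of 52.7%, from 57.0% for Spred2 to 74.0% for the Etv5 start shown. Spred1 had 72.3%, Dusp2, which fell, had 70.7%, and the second Etv5 start had 60.0%.

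Spred1 showed the largest rise of the set. It encodes a membrane-associated protein that binds neurofibromin and holds back Ras, and it lies on chromosome 2, 117121071 to 117182279 (GRCm38), with 7 exons. It measured 1.18, 1.39 and 1.31 FPKM in untreated replicates 1 to 3 and 4.49, 4.06 and 4.40 FPKM in GM-CSF replicates 1 to 3. The lowest GM-CSF culture was well above the highest untreated one. The means were 1.29 ± 0.105 and 4.31 ± 0.227 FPKM (SD, n = 3 each), a ratio of 3.34. On log2(FPKM + 1), the scale of every fold change given here, the difference was 1.21 (SE 0.08, limma adjusted p = 0.000159). This scale understates changes of low genes, and with a pseudocount of 0.1 the same difference was 1.67. Only 1.45% of tested genes passed with a rise of at least 1. Between 3.32 and 16.1 kilobases of aligned sequence per library lay behind these values. The transcript model in the tables is 2997 nt long, while the GENCODE M21 transcript paired with it has 6016 nt.

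Spred2, the close relative of Spred1, rose less. It lies on chromosome 11, 19924442 to 20024026. Untreated cultures measured 4.59, 3.50 and 4.41 FPKM and GM-CSF cultures 6.45, 5.87 and 5.97 FPKM, without overlap. The log2 fold change was 0.46 (SE 0.10, limma adjusted p = 0.0183). The call ended without GM-CSF replicate 1 (limma adjusted p = 0.0643).

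The balance of the SPRED genes moved towards Spred1. Spred1 made up 20.4%, 28.4% and 22.8% of the summed SPRED FPKM in untreated cultures and 41.0%, 40.9% and 42.4% with GM-CSF. The groups did not overlap, and the two-sided permutation test over all exact regroupings gave p = 0.1, the smallest that 3 against 3 allow. The summed level went from 5.46 ± 0.496 to 10.4 ± 0.509 FPKM (SD, n = 3 each). A share within a library does not depend on how libraries are scaled. This share, the summed levels and the ratios between genes below were chosen after the values were seen. The third member of the family, Spred3, stayed between 0.0141 and 0.125 FPKM in the 6 libraries.

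Among the Sprouty genes, whose products block growth factor signalling to Ras and Raf, Spry2 was the member expressed. Spry2 (chromosome 14, 105891947 to 105896819) measured 1.94, 1.40 and 1.83 FPKM untreated and 2.52, 2.89 and 2.38 FPKM with GM-CSF. The groups did not overlap, and untreated replicate 2 was the lowest of the 6. The log2 fold change was 0.40 (SE 0.11, limma adjusted p = 0.0454). This call ended when any single library was left out (limma adjusted p between 0.0592 and 0.122). Spry1 (chromosome 3, 37639947 to 37644599) was listed at 0 in all 6 libraries. Spry3 and Spry4 reached at most 0.0197 and 0.0269 FPKM.

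Etv5 encodes an ETS transcription factor of the PEA3 subfamily, whose expression depends on ERK signalling in many tissues. It lies on chromosome 16, 22381313 to 22439570, with 13 exons. It measured 4.29, 3.58 and 4.32 FPKM in untreated cultures and 9.92, 10.8 and 10.3 FPKM with GM-CSF. Every GM-CSF culture was above every untreated one by more than the range within either group. The means were 4.06 ± 0.416 and 10.4 ± 0.463 FPKM (SD, n = 3 each), a ratio of 2.55, and the log2 fold change was 1.17 (SE 0.08, limma adjusted p = 0.000179). The other PEA3 genes were close to 0, with Etv1 at no more than 0.0618 FPKM and Etv4 at no more than 0.0368 FPKM in any library.

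**Figure D1:**
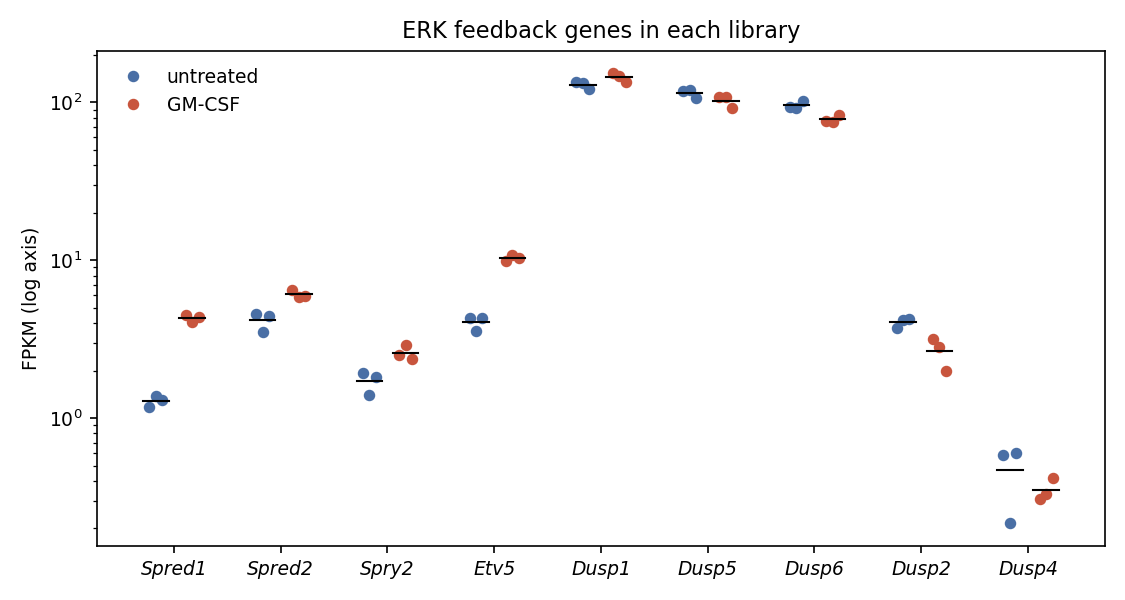
FPKM of 9 genes on a log axis, with each point a library (untreated in blue, GM-CSF in red) and black lines at group means. Spry1, listed at 0 throughout, is left out. Spred1 and Etv5 show the widest gap between groups, while Dusp1, Dusp5 and Dusp6 sit near 100 FPKM in both.

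The phosphatase genes differed from each other in level far more than with treatment. Dusp1, Dusp5 and Dusp6 together held 98.7% ± 0.112 of the summed FPKM of the 5 phosphatase genes in untreated cultures and 99.1% ± 0.130 with GM-CSF (SD, n = 3 each). The sum itself was 345 ± 7.30 and 329 ± 14.7 FPKM, with overlapping groups (two-sided exact permutation p = 0.2). In untreated cultures Dusp1 was higher than 93.9% of tested genes, Dusp5 higher than 93.0% and Dusp6 higher than 91.8%.

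Dusp6 encodes a cytoplasmic phosphatase with a strong preference for ERK and is a classic target of the pathway. It lies on chromosome 10, 99263231 to 99267489, with 3 exons. It measured 93.2, 92.6 and 102 FPKM untreated and 76.0, 75.6 and 83.4 FPKM with GM-CSF. Each GM-CSF culture was below each untreated one, and replicate 3 was the highest in both groups. Dusp6 fell by 0.29 on the log2 scale (SE 0.06, limma adjusted p = 0.0160). The call ended without GM-CSF replicate 1 (limma adjusted p = 0.0578), without GM-CSF replicate 2 (0.0552), and after rescaling to one FPKM sum (0.0734).

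Etv5 and Dusp6 thus changed in opposite directions. Dusp6 was 21.7, 25.8 and 23.7 times the Etv5 level per length in untreated cultures and 7.66, 6.97 and 8.07 times with GM-CSF. Against Spred1 the ratio of Dusp6 went from 74.7 ± 6.95 to 18.2 ± 1.08 (SD, n = 3 each). Neither pair of groups overlapped (two-sided exact permutation p = 0.1 for each). That outcome was fixed, because the genes of each ratio were already without overlap in opposite directions. The test of these ratios is therefore no further support. A ratio shows that the genes changed unequally, not which of them moved.

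Dusp1 encodes a nuclear phosphatase, MKP-1, that acts on p38 and JNK as well as ERK and is induced quickly by stress and mitogens. It lies on chromosome 17, 26505591 to 26508472. Untreated cultures measured 134, 132 and 122 FPKM and GM-CSF cultures 153, 148 and 134 FPKM. The groups were barely apart, and the log2 fold change of 0.16 (SE 0.06, 95% interval 0.01 to 0.31, not adjusted for the number of genes) did not pass (limma adjusted p = 0.119). Within the library, Dusp1 over Dusp6 went from 1.35 ± 0.139 to 1.86 ± 0.216 (SD, n = 3 each) without overlap (two-sided exact permutation p = 0.1). This was fixed, as both genes were already without overlap in opposite directions, and adds no support for a change of Dusp1. Dusp1 over Dusp5, whose own groups overlapped, did not overlap either, at 1.13 ± 0.0199 and 1.42 ± 0.0415.

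Dusp5 encodes a nuclear phosphatase specific for ERK. It lies on chromosome 19, 53529145 to 53541809. It measured 118, 119.8 and 107 FPKM untreated and 108, 107 and 92.2 FPKM with GM-CSF, and the groups overlapped. The log2 fold change was -0.16 (95% interval -0.35 to 0.02, limma adjusted p = 0.192), which does not show that the gene stayed level. Its transcript model in the tables has 1155 nt, equal to the coding length of the paired GENCODE transcript of 2473 nt, so its FPKM is per kilobase of coding sequence.

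Dusp2, a nuclear phosphatase also known as PAC-1 and first described in activated lymphocytes, was low. It lies on chromosome 2, 127336159 to 127338377. It measured 3.71, 4.20 and 4.25 FPKM untreated and 3.17, 2.82 and 1.99 FPKM with GM-CSF. All GM-CSF cultures were lower, with replicate 3 the lowest. Dusp2 fell by 0.48 (SE 0.14, limma adjusted p = 0.0494), at the edge of the threshold. The call ended when any library other than GM-CSF replicate 1 was left out (limma adjusted p between 0.0683 and 0.136, and 0.0394 without that library), and under all 3 other scalings (between 0.0678 and 0.0959).

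Lymphocyte markers, like Dusp2, were lower in the GM-CSF group as a whole. All 6 tested B and plasma cell markers of 8 listed and all 4 tested T cell markers of 8 listed fell, where 14.2% of all tested genes fell. The summed level of the B and plasma cell list was 47.2 to 54.2 FPKM untreated and 27.3 to 28.9 FPKM with GM-CSF, and that of the T cell list 27.6 to 28.7 and 14.9 to 17.6 FPKM. No marker in these lists was at 0 in all libraries. Their part in the falls of Dusp2 and Dusp6 was not tested. In such bulk RNA, fewer cells of a type and less RNA per cell cannot be told apart. Of the other lists, 4 of 8 tested epithelial, 3 of 6 macrophage and dendritic, 2 of 4 mast cell and 2 of 2 innate lymphoid and NK markers fell and none rose. Of 5 neutrophil markers 1 rose and 2 fell, and of 2 stromal and endothelial markers 1 rose and 1 fell. Of 8 eosinophil markers 1 rose and 4 fell. The summed levels, untreated and then with GM-CSF, were 85.8 to 91.7 and 55.9 to 69.4 FPKM for the epithelial list, 921 to 991 and 963 to 1036 for the macrophage and dendritic list, and 221 to 305 and 140.3 to 161 for the mast cell list. They were 1369 to 1485 and 1142 to 1169 FPKM for the neutrophil list, in which Elane and Camp were at 0. They were 8.03 to 9.66 and 4.72 to 5.74 FPKM for the innate lymphoid and NK list and 152 to 169 and 118 to 133 FPKM for the stromal and endothelial list. The eosinophil list summed to 1132 to 1315 and 742 to 846 FPKM. Tpsb2, a mast cell tryptase gene, was also at 0. Few genes carried some of these sums. Mean FPKM untreated and with GM-CSF was 1344 and 999 for Retnlg (neutrophil list) and 250 and 144 for Hdc (mast cell list). It was 155 and 117 for Pecam1 (stromal and endothelial list). In the macrophage and dendritic list it was 368 and 426 for Emr1 and 450 and 431 for Itgax. In the same lists Mpo, Cpa3, Col1a1 and C1qa were below 1 FPKM in every library. Such a sum does not give the amount of a cell type.

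Dusp4, a nuclear phosphatase close to Dusp1 (chromosome 8, 34807610 to 34819894), was below the limit for testing. It measured 0.586, 0.216 and 0.600 FPKM untreated and 0.309, 0.330 and 0.415 FPKM with GM-CSF, and the groups overlapped. With the limit lowered to a mean of 0.1 FPKM, the log2 fold change was -0.11 (SE 0.12, limma adjusted p = 0.613), in a fit where 16.3% of 13685 genes passed. At most 1.34 kilobases of aligned sequence lay on this gene in any library.

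**Figure D2:**
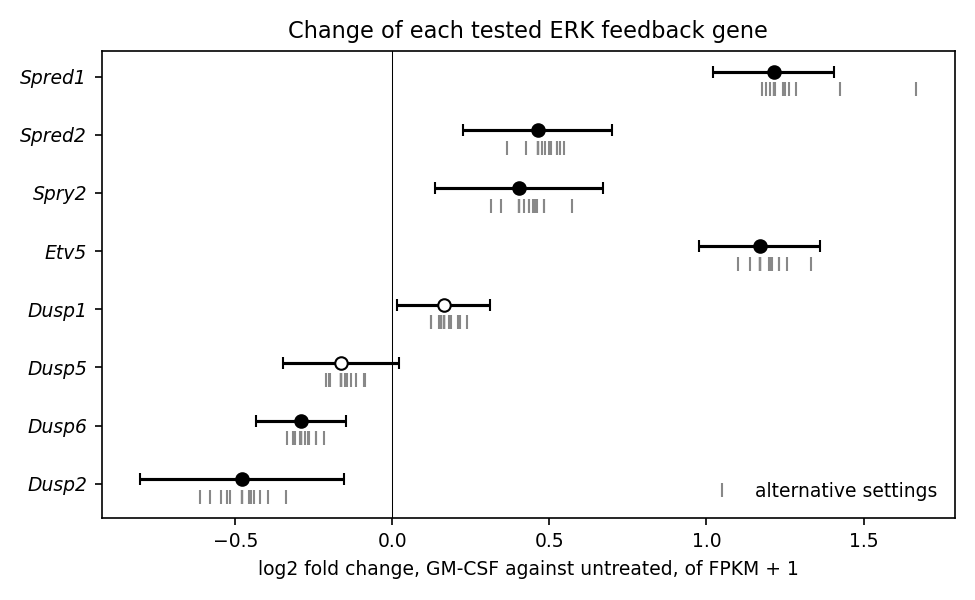
Log2 fold change (GM-CSF against untreated, of FPKM + 1) of the 8 tested genes, with bars for the 95% interval, filled points for an adjusted p under 0.05 and grey ticks for each alternative setting. Every tick lies on the same side of 0 as its main value, and those of Spred1 and Etv5 stay above 1.

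The order of levels shows which genes can be told apart within a group. In untreated cultures it ran Dusp1, Dusp5 and Dusp6, each apart from the next, and then Spred2, Etv5 and Dusp2, whose ranges overlapped around 4 FPKM, followed by Spry2, Spred1, Dusp4 and Spry1. The Dusp5 value is per kilobase of coding sequence, so its place between Dusp1 and Dusp6 depends on its transcript model. With GM-CSF, Etv5 stood above Spred2 and Spred2 above Spred1, with no overlap between neighbours. Dusp2 and Spry2 overlapped beneath them. Spred1 went from above 4.06% of tested genes to above 28.2%, and Etv5 from above 25.6% to above 49.2%.

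**Figure D3:**
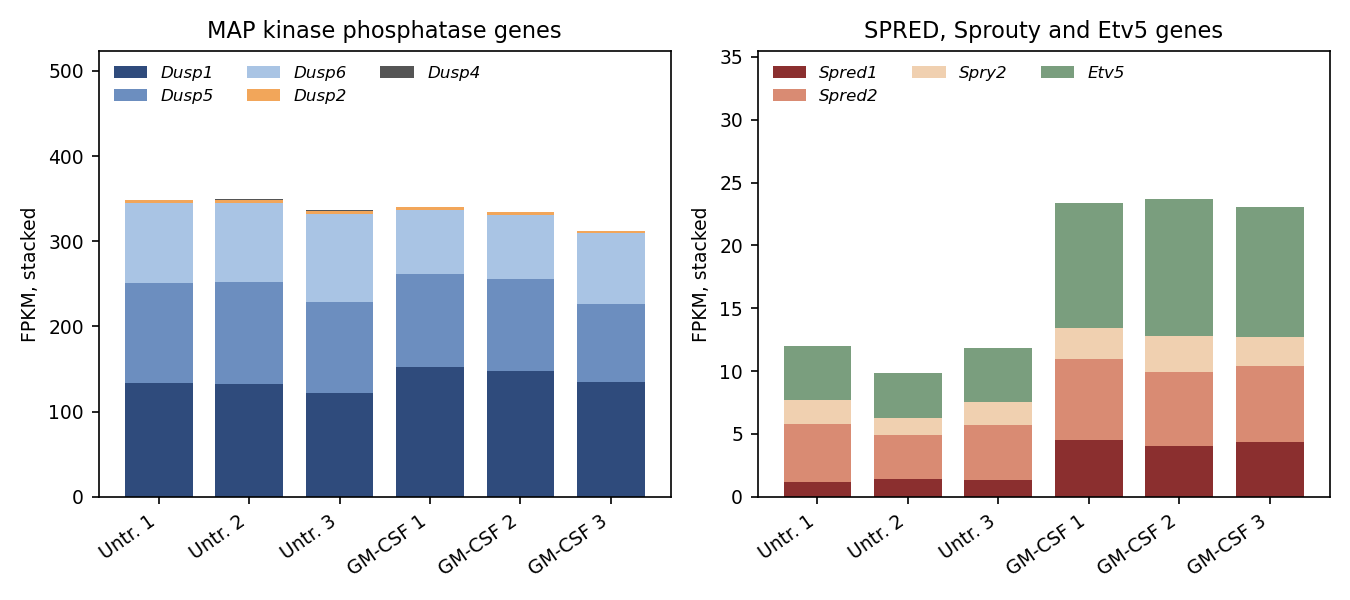
Stacked FPKM per library of the phosphatase genes (left) and of the SPRED, Sprouty and Etv5 genes (right), with axes from 0. The phosphatase sum lies between 312 and 349 FPKM in all 6 libraries, while Spred1 and Etv5 take up more of the right-hand bars with GM-CSF.

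The messages of the 10 genes differ in a feature that the choice did not use. Adenylate and uridylate-rich elements built on the pentamer AUUUA, in DNA letters ATTTA, mark many short-lived messages. In GENCODE M21 the 3′ UTR of Dusp1 holds 4 copies in 690 nt and that of Dusp2 holds 4 in 581 nt. Spred1 has 12 in 4330 nt and Etv5 has 5 in 2161 nt. The other 6 genes have 1 or 2 copies, and the median over 20948 genes is 1 in a median length of 938 nt. Counts grow with length, and per kilobase Dusp1 holds 5.80 and Dusp2 6.88, Spred1 2.77, Spry2 2.34 and Etv5 2.31, against a median of 1.22. The number of copies is a description of the sequence and not a measurement of decay.

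In the core ERK cascade around these genes, members changed in both directions. Of 29 core pathway genes 26 were tested, 3 rose, 7 fell and 16 did not pass, with a median log2 fold change of -0.07. Those that passed were 38.5% of the 26, against 21.8% of all tested genes. Of all tested genes 7.60% rose and 14.2% fell, with a median of -0.05. With median-of-ratios factors 5 of the list rose and 7 fell, where 1075 of all tested genes rose and 968 fell. Ksr1, a scaffold that brings Raf, MEK and ERK together, had 12.8 ± 1.32 FPKM untreated and 27.6 ± 1.22 with GM-CSF (SD, n = 3 each), a rise of 1.06 (limma adjusted p = 0.000243). The kinase genes Rps6ka2, a direct ERK substrate, and Rps6ka5, an ERK and p38 substrate, fell by 0.72 and 0.68. Mapk3, which encodes ERK1 and was named after its values were seen, fell from 242 ± 6.85 to 185 ± 3.53 FPKM (SD, n = 3 each; limma adjusted p = 0.000838).

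Among 20 other inhibitors of Ras and ERK, 13 were tested, 0 rose, 4 fell and 9 did not pass, with a median of -0.15. The falls were 30.8% of the 13, where 14.2% of all tested genes fell, with an all-gene median of -0.05. With 7.60% of all tested genes rising, a count of 0 among 13 is near the background, and 1 of them rose after quantile normalization. Cblb, a ubiquitin ligase gene, fell by 0.53, the Ras GTPase-activating protein gene Rasa3 by 0.47 and the ERK-binding tyrosine phosphatase gene Ptpn7 by 0.46. Nf1, which encodes the SPRED partner neurofibromin and was named after its values were seen, measured 2.99 ± 0.102 and 3.47 ± 0.143 FPKM (limma adjusted p = 0.146).

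Outside the 5 phosphatase genes above, Dusp16 was the 1 of 7 tested dual-specificity phosphatase genes to pass, or 14.3% against 21.8% of all tested genes. Dusp16 encodes MKP-7, which acts mainly on JNK and p38. It measured 11.7, 11.3 and 11.5 FPKM untreated and 24.9, 23.4 and 23.7 FPKM with GM-CSF, with very little spread in either group. The log2 fold change was 1.00 (SE 0.05, limma adjusted p = 4.31e-05). The gene has 2 transcripts in the tables. The longer, of 5107 nt, went from 7.84 ± 1.21 to 20.4 ± 0.831 FPKM and the shorter, of 4141 nt, measured 3.66 ± 1.08 and 3.60 ± 0.525 FPKM (SD, n = 3 each). How reads were divided between them is not stated in the labels. Among the JNK and p38 kinase genes, Map2k4, an activator of JNK, rose from 30.2 to 50.3 FPKM (log2 fold change 0.72) and Mapk14, the p38 alpha gene, fell by 0.32. The other 4 of 6 tested did not pass, so 33.3% were called, against 21.8% of all tested genes. The call of Mapk14 ended without any library other than GM-CSF replicate 2 (limma adjusted p up to 0.0958).

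Among other ETS factor genes downstream of ERK, 8 were tested, 1 rose, 1 fell and 6 did not pass. This is 25.0% called, near the 21.8% of all tested genes. Etv6, a transcriptional repressor gene, went from 14.4 ± 1.18 to 27.8 ± 0.897 FPKM (log2 fold change 0.91, limma adjusted p = 0.000230). Elk3 fell by 0.33, a call that ended without any library other than untreated replicate 2 (limma adjusted p up to 0.0760). Etv3, a repressor gene named after its values were seen, was listed at 13.9, 0 and 13.4 FPKM untreated and 27.7, 28.2 and 26.1 FPKM with GM-CSF. It was among 30 genes listed at 0 in exactly 1 library and at 5 FPKM or more in the other 5, so that 0 can be a failed estimate. With it, the gene did not pass (limma adjusted p = 0.173), and without untreated replicate 2 the log2 fold change was 0.95 (SE 0.06, limma adjusted p = 0.000697).

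Of 22 genes known to respond to ERK, 18 were tested, 5 rose, 3 fell and 10 did not pass, with a median of -0.00, against 7.60% rising and 14.2% falling among all tested genes. Hbegf, an EGF-family ligand gene, measured 0.744 ± 0.166 and 12.2 ± 1.12 FPKM and rose by 2.92. Ier3, an immediate early gene, went from 9.09 ± 0.494 to 34.5 ± 2.48 FPKM and rose by 1.81. Fosb, an AP-1 subunit gene, fell by 0.66, though not without untreated replicate 1 or 2 (limma adjusted p = 0.0770 and 0.0837). The other genes were named after their values were seen. Egr2, Plaur and Mcl1 also rose (log2 fold change 0.56, 0.52 and 0.13), and Fos and Jun also fell (-0.50 and -0.40). Mcl1 was at the edge of the threshold (limma adjusted p = 0.0480), with Jun at 0.0420 and Fos at 0.0351. Rises in the list went from 5 to 4 whichever library was left out. Egr1 (-0.07), Ier2 (0.00) and Junb (0.01) were among those that did not pass. Without untreated replicate 1, and likewise without untreated replicate 2, 4 genes of this list rose and 0 fell. Without GM-CSF replicate 2, 4 rose and 1 fell, and with median-of-ratios factors 5 rose and 1 fell.

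**Figure D4:**
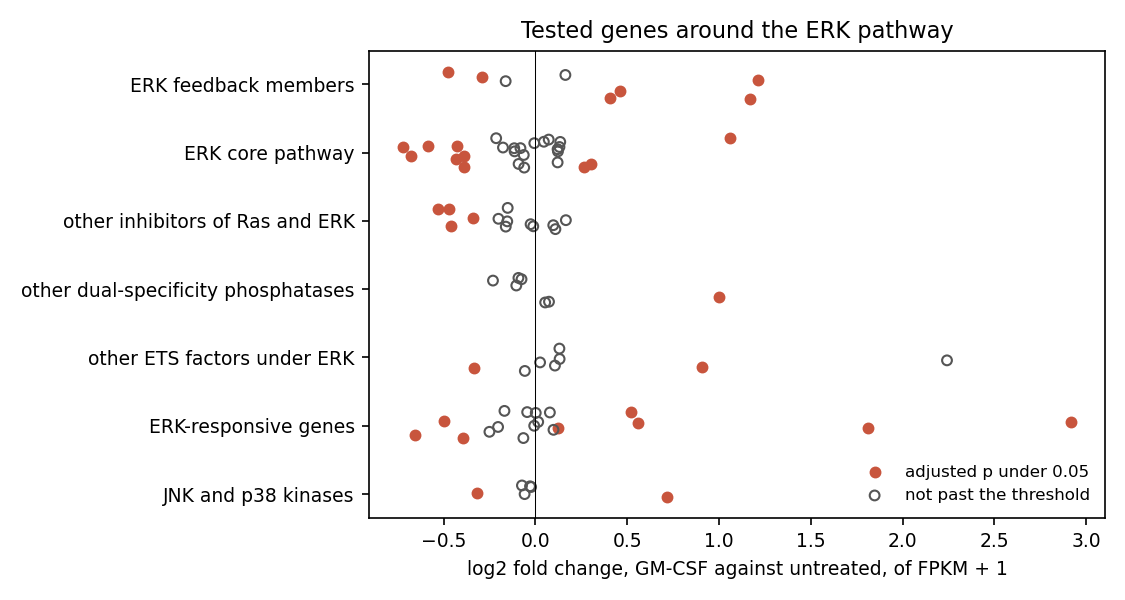
Log2 fold change (GM-CSF against untreated, of FPKM + 1) of every tested gene in the ERK feedback set and 6 neighbouring lists, with filled points for an adjusted p under 0.05. Each list holds points on both sides of 0, and the open point at 2.24 is Etv3, which 1 untreated library lists at 0.

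By Pearson correlation of log2(FPKM + 1) over the 6 libraries, the genes most like Spred1 were Ttc39c (0.999), Cdk6 (0.998), Lrp12 (0.998), Rbms1 (0.998) and Gpr171 (0.998). All 5 rose, with log2 fold changes from 0.70 to 2.83. Such values mostly express the gap between 2 groups of libraries and are a description. Among the ERK feedback genes, Etv5 was nearest to Spred1 at 0.978, followed by Spred2 at 0.894 and Spry2 at 0.840, while Dusp6 stood at -0.902.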

How the data were processed

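Polyadenylated RNA of 6 cultures was sequenced with a TruSeq Stranded mRNA library kit, as the labels' protocols state. Tools named in the submitters' processing notes are Cufflinks, TopHat, TopHat2 and bcl2fastq 1.8.4, and the build is mm10, with no order or settings. The authors deposited an FPKM and a coverage signal for each of 30374 RefSeq transcripts, and the transcript length, per the file headers. Coverage divided by FPKM is constant within a library and gave the mapped gigabases. Counts were not used, so no count model was run.

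FPKM were summed per symbol and locus. Each of the 10 genes has 1 transcript. Genes whose mean over the libraries reached 1 FPKM were tested on log2(FPKM + 1) with limma 3.58.1 in R 4.3.3 (trend, two-sided, Benjamini-Hochberg over all tested genes, threshold 0.05), checked on simulated data. The members and lists were chosen with earlier results of these data known. From each list the 3 largest changes that passed are named, and for Spred1 the 5 most similar genes. Hras was matched as Hras1. Coordinates come from RefSeq GRCm38.p6, the assembly mm10 is built on. Alternatives were other pseudocounts, filters and scalings, no trend, the highest transcript, a replicate block, and leaving out each library. Protein sequences and the deposited intervals were not used here.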

Additional observations from a re-analysis of the deposited data

How the results depend on the processing

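The number of changed genes was 2209 and ranged from 1516 to 2226 over the alternatives, and leaving out 1 library gave 1516 to 1787. Of the ERK feedback genes 6 passed. With a mean of at least 5 FPKM, which leaves 5 to be tested, 3 passed, and after rescaling to one FPKM sum 3 passed. Leaving out 1 library gave 3 to 4. Spred1 and Etv5 passed under every alternative in which they were tested, 16 and 17. Spry2 lost its call under 11 of 16 and Dusp2 under 15 of 16. No log2 fold change of the 24 genes followed changed sign under any alternative. Spred1, Spry2, Dusp2 and Dusp4 each rested on fewer than 20 kilobases of aligned sequence in every library, and the part of depth in lost calls was not tested.

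The ETS list went from 2 to 1 with no filter on low values, with median-of-ratios factors, with one FPKM sum and with the replicate block, and to between 1 and 3 when 1 library was left out. The ERK-responsive list went from 8 to 4 with no filter, 5 with quantile normalization and 5 with the highest transcript, and to between 4 and 6 when 1 library was left out. Its falls went from 3 to 0 with no filter and to 1 with quantile normalization and with the highest transcript, while 4 rose in each. The JNK and p38 list went from 2 to 1 with no filter, median-of-ratios factors, one FPKM sum and the highest transcript, and to between 1 and 2 when 1 library was left out. The causes were not tested.

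Same-numbered libraries of the groups did not deviate together (correlations of -0.031, 0.050 and -0.021), and not every library correlated best with its own number. With the replicate block as a term, 1991 genes passed, Dusp1 (limma adjusted p = 0.0380) and Dusp5 (0.0497) passed, and Spry2 (0.105) and Dusp2 (0.0928) did not.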
